A study of Sus scrofa with 13 samples.

Results

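The lung library of adult pigs was compared with the libraries of 8 other organs. The 9 libraries were chosen by their labels alone, as all single-tissue libraries taken 240 days after birth, out of 13 libraries in the series. They came from Guizhou mini-pigs, a small Chinese breed, and covered lung, heart, liver, spleen, kidney, testis, ovary, adipose tissue and a back muscle, the longissimus dorsi. Total RNA was depleted of ribosomal RNA and sequenced with strand-specific protocols, either SMART or dUTP, and the labels do not say which protocol was used for which library. No treatment or genetic change was named for any group. The labels do not give the number of animals behind a library, and testis and ovary were both in the comparison, so the organs were not all from a single animal. There was 1 library per organ, so no difference between organs had a replicate check and no test between organs was possible. The intervals given below cover counting error only.

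The lung exchanges gas across an alveolar surface made of flat type 1 cells and surfactant-secreting type 2 cells. Surfactant, a film of phospholipids and surfactant proteins, lowers surface tension and keeps the alveoli open. The conducting airways are lined by ciliated cells and by secretory cells that release secretoglobins and other host defence proteins, and a dense capillary bed, macrophages and elastic tissue make up much of the rest of the organ.

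Expression was given as RPKM, the reads on a feature scaled to its length and to the depth of the library. Of the 21607 genes listed by Ensembl identifier, 16838 were above 0 in lung, and of 10813 lncRNAs, named TCONS by the transcript assembly, 3953 were above 0 in lung. Features with at least 0.1 RPKM in at least 1 of the 9 libraries were compared, which left 18576 Ensembl genes and 7932 lncRNAs. Differences were taken on the log2(RPKM + 0.1) scale between lung and the median, the highest or the lowest of the 8 other organs, and a difference of at least 2-fold was counted as called. On this scale, changes of features with low RPKM are understated. The RPKM values gave whole reads, and the total behind them was 36962781 reads in lung, of which 6154301 (16.6%) were counted on features. The totals of the other organs ranged from 21685316 in ovary to 38581416 in testis, with 11.6% to 38.0% of reads counted. For a feature of 1 kb, 3 reads in lung corresponded to 0.0812 RPKM, which was taken as the smallest level that the depth could show. In bulk tissue, fewer cells of a type and less RNA per cell cannot be told apart.

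The lung library also held transcripts of liver genes at a few percent of their liver level, and these are given before the other results because they enter the counts above the median. ALB, serum albumin, was at 343 RPKM in lung and 5495 RPKM in liver, with a median of 0.443 RPKM over the 8 other organs. Among the 7 hepatocyte genes paired with an identifier, 6 were called above the median in lung, and 5 were above the maximum without the liver library. For TF, the iron carrier transferrin, lung had 39.8 RPKM and liver 668. TTR, the thyroxine carrier transthyretin, was at 14.2 RPKM in lung, and APOA2 and APOB, apolipoproteins of plasma lipid particles, were at 12.9 and 8.81 RPKM. FGB, the fibrinogen beta chain, had 4.27 RPKM. The level of these 6 genes in lung was between 3.78% and 6.65% of that in liver, with a median of 5.27%. APOA1 was low in both, at 0.0700 RPKM in lung and 0.364 RPKM in liver.

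This was extended to all genes with at least 50 RPKM in liver and under 1 RPKM in the other 7 organs, a choice made after the ALB value had been seen. There were 32 such genes, and all 32 were called above the median in lung. Their level in lung was between 2.74% and 11.2% of the liver level, with a median of 4.24%. They included CPS1 and OTC, enzymes of the urea cycle, at 1.61 and 2.20 RPKM in lung, and AHSG, the plasma protein fetuin, at 12.2 RPKM. The highest share was that of CFB, complement factor B, with 16.3 RPKM in lung and 145 RPKM in liver. For genes chosen in the same way in other organs, the median level in lung was 0.0522% of the kidney level over 13 genes, 0.0345% of the testis level over 119 genes, 0.0435% of the muscle level over 11 genes and 0.0303% of the ovary level over 5 genes. Heart, spleen and adipose tissue had 1, 1 and 2 such genes, at 0.142%, 2.69% and a median of 1.20% of the level in those organs. Single genes of other organs reached the liver range, with 10 of the 119 testis genes and 2 of the 13 kidney genes between 2% and 10%, and the highest testis gene at 15.9%. With 5.27% of the liver level taken off each lung value, an alternative chosen after seeing the data, the number of Ensembl genes called above the median was 5643 against 5960 without it, and the number above the maximum was 500 against 505. The origin of these transcripts was not tested.

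**Figure D1:**
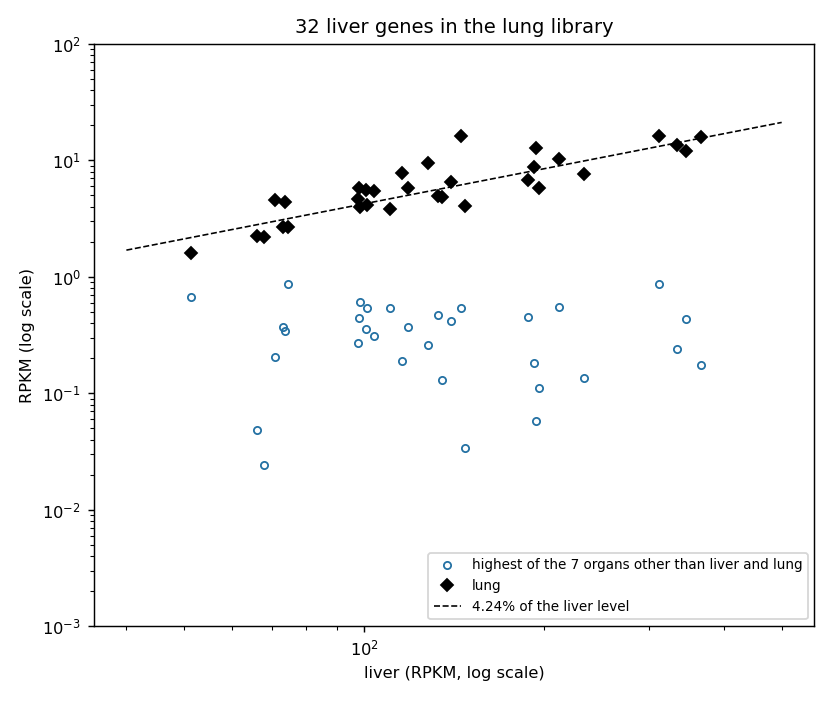
Genes with at least 50 RPKM in liver and under 1 RPKM in the other 7 organs, with the liver level on the x axis and the level in lung (diamonds) or in the highest of the other 7 organs (circles) on the y axis, both in RPKM on log scales. The 32 lung values lie around the dashed line at 4.24% of the liver level, and all circles lie below 1 RPKM.

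Of the 18576 Ensembl genes compared, 5960 (32.1%) were at least 2-fold higher in lung than the median of the 8 other organs, and 769 (4.14%) were at least 2-fold lower. A total of 505 genes (2.72%) were at least 2-fold higher than in every other organ, of which 169 were at least 4-fold and 73 at least 8-fold higher. Only 6 genes (0.0323%) were at least 2-fold lower than in every other organ. These shares are the background against which the 32 gene lists below are read. No such share was counted for lung against spleen alone, or for lung among the lowest 3 organs, so counts of those kinds have no background. The lists held 334 genes paired with an identifier, of which 5 stood in more than 1 list (ACE, EDNRB, CYP4B1, CYP2F1 and AQP5). The difference between lung and the median of the others had itself a median of 0.51 on the log2 scale over all Ensembl genes, and it was 0.73 with every library scaled to the same total RPKM and 0.08 with scaling to the same median ratio. Differences of single genes are therefore to be read relative to this general shift. Genes called above made up 88.6% of the genes called on either side of the median, against 73.6% after scaling to the same median ratio. By the number of Ensembl genes at least 2-fold above every other organ, lung came after 3 organs, testis with 3046, ovary with 2261 and kidney with 599. The remaining 5 organs had between 210 and 410. Without the spleen library, the number for lung was 894, and without the testis library it was 805.

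**Figure D2:**
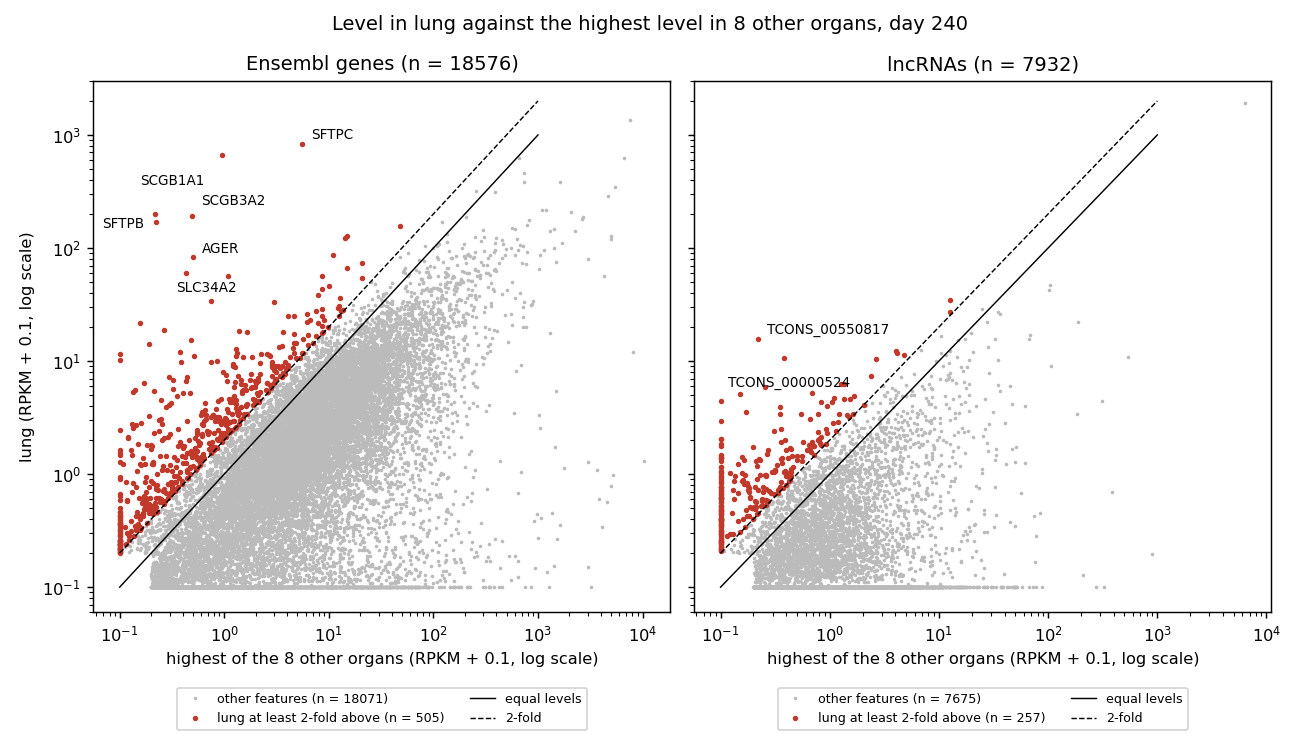
RPKM + 0.1 in lung (y axis) against the highest of the 8 other organs (x axis), both on log scales, for 18576 Ensembl genes on the left and 7932 lncRNAs on the right, with 1 point per feature. Red points, 505 genes and 257 lncRNAs, lie above the dashed line of 2-fold, and SFTPC is the highest of the labelled genes at 831 RPKM in lung.

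Surfactant genes were among those that stood highest above every other organ. SFTPC, a hydrophobic surfactant protein, had the highest level in lung among genes with a symbol, at 831 RPKM (95% Poisson interval 822 to 840). In the other organs it ranged from 0 to 5.43 RPKM with a median of 0.226, and the highest, in testis, rested on 220 reads. Lung was 153-fold higher than testis (95% counting interval 134 to 176). SFTPB, the other hydrophobic surfactant protein, was at 169 RPKM in lung, at 0 in most other organs and at 0.123 RPKM in liver, the highest of them, with 6 reads. SFTPD, a collectin that binds microbes, had 56.2 RPKM in lung against 0 to 0.988 RPKM elsewhere. In the 1 lung library, these 3 surfactant proteins were above the highest of the other organs by a wide margin. Lung held the highest value, by any margin, for 1697 (9.14%) of all Ensembl genes compared.

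The list of 20 alveolar type 2 genes had 15 members paired with an identifier, and all 15 passed the limit of 0.1 RPKM. The other 5 had no paired identifier and have no value here, so surfactant genes may be missing. Of these, 13 were called above the median and 6 above the maximum, with a median difference of 2.66 to the median of the other organs on the log2 scale. Beside the 3 surfactant proteins, SLC34A2, the phosphate transporter of type 2 cells, was at 60.5 RPKM in lung and at 0 to 0.327 RPKM elsewhere. NAPSA, the protease napsin A that processes SFTPB, was at 7.13 RPKM, 20.7-fold above spleen (12.7 to 35.9). ABCA3, which loads phospholipids into lamellar bodies, was at 3.68 RPKM, against a highest value of 0.739 RPKM in liver. These 6 were the members called above the maximum. FASN, fatty acid synthase, was at 13.3 RPKM in lung and 131 RPKM in adipose tissue, and ACSL4, an acyl-CoA synthetase, was at 4.34 RPKM in lung and 96.1 RPKM in ovary. LPCAT1, which makes the main surfactant phospholipid, was 1.51-fold above spleen (1.34 to 1.71), short of the limit.

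The airway secretory list had 12 members paired, of which 10 passed the limit. Among these 10, 9 were called above the median and 8 above the maximum, with a median difference of 6.37. SCGB1A1, the secretoglobin of club cells, was at 200 RPKM in lung with 3509 reads. The highest other organ was kidney with 0.116 RPKM from 2 reads, a ratio of 1726 with a 95% counting interval of 477 to 14258. SCGB3A2, a related secretoglobin, was at 191 RPKM against 0 to 0.390 RPKM elsewhere. SCGB3A1 was at 9.99 RPKM, 13.3-fold above ovary (5.52 to 41.6). The 3 secretoglobins were thus at 0 in the median of the other organs and far above 0 in lung. BPIFB1, a lipid-binding protein of airway mucus, was at 6.69 RPKM and 29.5-fold above ovary (14.8 to 68.8). PIGR, the receptor that carries IgA and IgM across epithelia, was at 10.7 RPKM, 6.21-fold above kidney. CYP4B1, a cytochrome P450 of club cells, was at 30.7 RPKM against 12.4 RPKM in testis. BPIFA1 and CYP2F1 were called with 15 and 5 reads in lung and 0 in the 8 others. TFF2 was at 0 in all 9 organs, and AGR2 was at 0.132 RPKM in lung with 3 reads against 0.490 RPKM in kidney.

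Alveolar type 1 genes were likewise above the other organs. Of 10 members paired and passed, 9 were called above the median and 5 above the maximum, with a median difference of 3.12. AGER, a receptor of the immunoglobulin family that is abundant on type 1 cells, was at 83.4 RPKM in lung. Elsewhere it ranged from 0 to 0.398 RPKM, and lung was 210-fold above adipose tissue (138 to 335). CLDN18, a claudin of tight junctions, had 18.7 RPKM in lung against at most 0.165 RPKM in ovary, and GPRC5A, an orphan receptor, had 14.2 RPKM against at most 0.0890 RPKM in ovary. PDPN, podoplanin, was at 9.78 RPKM and 3.51-fold above ovary (2.56 to 4.90). AQP5, a water channel, was at 0.849 RPKM with 48 reads and at 0 in all 8 others, which makes it at least 9.39-fold higher when 3 reads are put in the shallowest other library. CAV1 and CAV2, the caveolins, were at 33.4 and 10.8 RPKM, close to adipose tissue with 32.1 and 8.09 RPKM. Neither caveolin differed by 2-fold between lung and adipose tissue.

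The 20 genes with a symbol that stood highest above the maximum, among those with at least 1 RPKM and 10 reads in lung, included 11 genes of the secretory, type 2, type 1 and ciliated cell lists. TFF3, a trefoil peptide of mucus, was at 10.1 RPKM from 53 reads and at 0 in all 8 others, at least 10.4-fold higher. Its recovered length of 142 nt is a lower bound, since it was above 0 in few libraries, and so are its reads. IDO1, which degrades tryptophan, was at 5.21 RPKM with a highest other value of 0.0345 RPKM in kidney from 2 reads, a ratio of 151 (41.5 to 1253). C1orf87, CCDC190 and DTHD1 were at 15.4, 9.71 and 5.44 RPKM, and 40.7-, 33.9- and 134-fold above testis, heart and adipose tissue. FRMPD2, a scaffold protein with FERM and PDZ domains, was at 2.63 RPKM and 62.5-fold above heart. KCNMB2, a subunit of calcium-activated potassium channels, and GPX2, a glutathione peroxidase of epithelia, were at 2.46 and 2.02 RPKM. The highest other organ was kidney for both, with 1 read each, at ratios of 72.8 (12.7 to 2914) and 101 (17.8 to 4041). TMEM45B was at 2.71 RPKM, against 0.0595 RPKM from 3 reads in testis. For all 20 genes, lung lay above the 8 other organs, which follows from how the genes were chosen. Of the genes without a symbol, ENSSSCG00000010336 was at 669 RPKM in lung and at most 0.856 RPKM elsewhere, in liver, and ENSSSCG00000003048 was at 21.6 RPKM and at most 0.0559 RPKM elsewhere, in kidney.

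**Figure D3:**
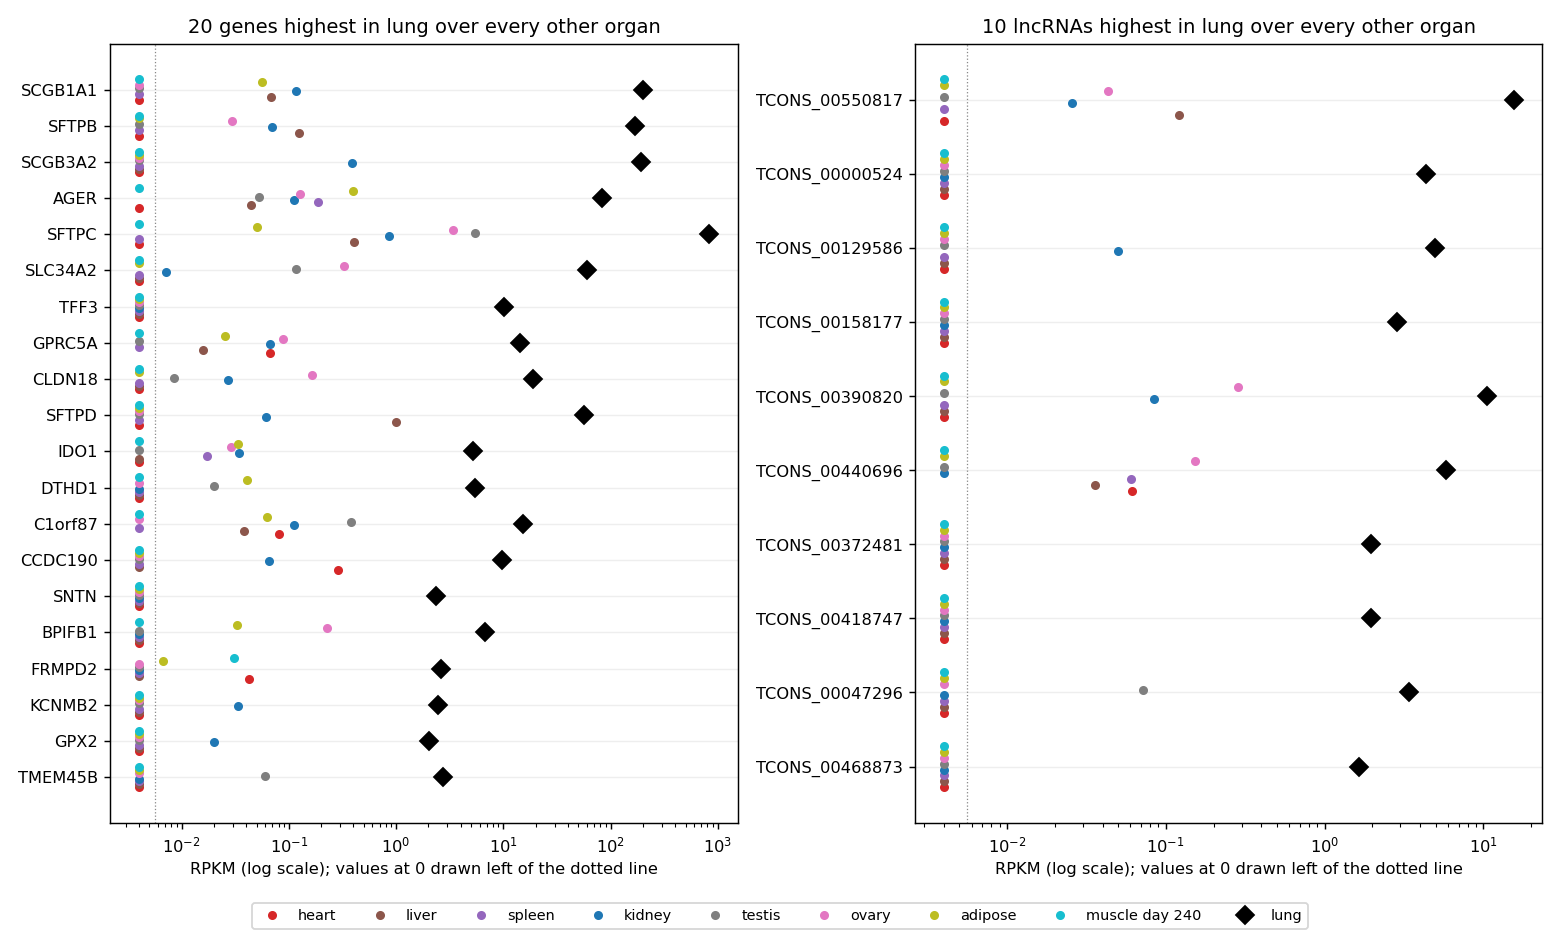
RPKM on a log scale in lung (black diamonds) and the 8 other organs (coloured circles) for the 20 Ensembl genes with a symbol (left) and the 10 lncRNAs (right) that stood highest above every other organ. Values at 0 are drawn left of the dotted line, where most organs lie for most of these features, and SCGB1A1 at 200 RPKM is at the top of the left panel.

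Genes of motile cilia were above the median in lung, but mostly below testis, where sperm tails use the same parts. All 15 members paired were called above the median, with a median difference of 4.29, and 4 were called above the maximum. These were DNAH9, an outer dynein arm motor, at 4.49 RPKM against 1.0 RPKM in ovary, RSPH4A, a radial spoke protein, at 3.43 RPKM against 0.509 RPKM in testis, CAPS, calcyphosine, at 2.29 RPKM against 0.138 RPKM in spleen, and SNTN, a protein of the ciliary tip, at 2.38 RPKM from 13 reads and 0 elsewhere. Members shared with the sperm tail were far lower than in testis. SPAG6, of the central pair, was at 5.64 RPKM in lung and 118 RPKM in testis, and TEKT2, a tektin, was at 1.62 and 62.3 RPKM. FOXJ1, the regulator of motile cilia, was at 0.833 RPKM in lung and 0.674 RPKM in testis, a ratio of 1.23 (0.890 to 1.72) whose interval includes 1. Without the testis library, 14 of the 15 were above every other organ. Of the airway basal cell list, 2 members passed the limit and 1 was above the median, TP63. TP63, which marks basal cells, was at 0.730 RPKM in lung and 4.63 RPKM in muscle.

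Transcription factors of lung development were above the median in 15 of 18 members and above the maximum in 4, with a median difference of 2.87. TBX4, a T-box factor of lung mesenchyme, was at 5.54 RPKM, 24.9-fold above ovary (12.5 to 58.1). TBX3 was at 13.2 RPKM, 4.08-fold above liver (3.70 to 4.51), and the epithelial Ets factors EHF and ELF3 were at 15.5 and 1.93 RPKM, 2.80-fold above testis and 2.56-fold above kidney. TBX5, shared with heart, was at 6.63 RPKM in lung and 5.19 RPKM in heart. FOXA2, a forkhead factor of the endoderm, was at 0.681 RPKM in lung and 0.665 RPKM in liver, a ratio whose interval of 0.561 to 1.89 includes 1. SOX9 was at 0.0669 RPKM in lung against a median of 0.108 RPKM. A list gene was counted only where a symbol was paired with an identifier, so 7 of the 25 factors have no value here.

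Endothelial genes were also high in lung. All 20 members exceeded spleen, but the share of all genes that did so was not counted. Of the 20 members, 18 were above the median and 7 above the maximum, with a median difference of 2.29. CALCRL, the receptor of adrenomedullin and calcitonin gene-related peptide, was at 122 RPKM in lung against 0.782 to 14.3 RPKM elsewhere with a median of 5.18, and 8.52-fold above ovary (7.80 to 9.32). Its partner RAMP2 was at 27.7 RPKM, 2.14-fold above ovary. EPAS1, the hypoxia-inducible factor HIF-2 alpha, was at 67.1 RPKM, 4.52-fold above ovary (4.29 to 4.77). Receptors of the BMP pathway were high as well. BMPR2 was at 25 RPKM and 2.01-fold above ovary (1.93 to 2.10), ACVRL1 at 17.7 RPKM and 2.07-fold above spleen (1.93 to 2.21), and ENG at 22.8 RPKM and 2.54-fold above kidney. The intervals of BMPR2 and ACVRL1 reach below 2-fold. ROBO4 was the seventh, at 6.04 RPKM. PECAM1, the general endothelial adhesion molecule, was at 39.2 RPKM in lung and 33.1 RPKM in ovary, and KDR, a VEGF receptor, was at 18.9 and 17.3 RPKM, so neither was 2-fold above ovary. With a pseudocount of 1 the number above the maximum was 4, and without testis and ovary it was 11.

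Mesenchyme and matrix genes were mostly above the median. Of 18 members, 16 were called above the median and 2 above the maximum, with a median difference of 2.14. Over all Ensembl genes, 2.72% were above the maximum. The 2 were LIMCH1, an actomyosin regulator, at 53.8 RPKM against 20.5 RPKM in kidney, and HHIP, an antagonist of hedgehog signals, at 16.8 RPKM against 6.28 RPKM in liver, and with scaling to the same median ratio neither was. ELN, elastin, was at 10.7 RPKM in lung and 8.21 RPKM in adipose tissue. COL3A1, a fibrillar collagen, was at 33.1 RPKM in lung against a median of 11.3 RPKM and 733 RPKM in ovary. FN1, fibronectin, which hepatocytes also secrete, was at 84.9 RPKM in lung and 165 RPKM in liver. Smooth muscle genes gave 6 of 7 above the median, with a median difference of 2.53, and 0 above the maximum. MYH11, smooth muscle myosin, was at 66.0 RPKM in lung and 138 RPKM in spleen, and all 7 members were lower in lung than in spleen.

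Macrophage and lymphocyte genes were above the median in nearly every case. All 13 macrophage members were above the median, with a median difference of 3.14, and 2 were above the maximum, while 5 had their highest value in spleen and 6 were higher in lung than in spleen. MARCO, a scavenger receptor of alveolar macrophages, was at 45.7 RPKM in lung, 9.88 RPKM in liver and 3.86 RPKM in spleen, and 4.62-fold above liver (4.21 to 5.09). LYZ, lysozyme, was at 5.86 RPKM and 2.15-fold above ovary (1.67 to 2.81). CTSS, cathepsin S, was at 81.7 RPKM in lung and 151 RPKM in spleen, and CD68 was at 9.59 and 22.4 RPKM. Of 17 lymphocyte members, 15 were above the median, with a median difference of 2.22, and 0 above the maximum, while 12 had their highest value in spleen. Without the spleen library, 10 of the 17 were above every other organ. With a pseudocount of 1, 8 of the 13 macrophage members and 8 of the 17 lymphocyte members were above the median. PTPRC, the leukocyte marker CD45, was at 32.1 RPKM in lung and 61.7 RPKM in spleen. MS4A1, a B cell surface protein, was at 0.450 RPKM in lung and 6.96 RPKM in spleen. Of the T cell genes, CD3D was at 4.43 and 11.2 RPKM and CD8A at 1.22 and 0.797 RPKM. On the log2 scale, lung minus spleen had a median of -0.94 over the lymphocyte list and -0.25 over the macrophage list.

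The lists of granulocyte genes, chemokines and erythroid genes were short. With 2.72% of all Ensembl genes above every other organ, few or no such calls in these lists say little. Of 5 granulocyte and mast cell members that passed, 3 were above the median and 0 above the maximum. CSF3R, the receptor of granulocyte growth factor, was at 3.19 RPKM in lung and 1.77 RPKM in spleen, and MPO and ELANE, which mark granule formation in bone marrow, were at 0 in lung. Of 9 chemokines and cytokines that passed, 8 were above the median and 1 above the maximum, with a median difference of 2.17. This was CXCL2, a chemokine for neutrophils, at 2.42 RPKM, 2.46-fold above testis (1.70 to 3.62). Of the 9, 5 were above the median and 0 above the maximum with a pseudocount of 1. IL6 and CXCL8 were at 0 in lung. Erythroid genes gave 3 of 4 above the median and 0 above the maximum, with HBB, beta globin, at 26.1 RPKM in lung and 52.7 RPKM in spleen.

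Genes of alveolar ion and water transport were above the median in 6 of 10 members, with a median difference of 2.39, and above the maximum in 2. These were AQP5 and CFTR, the chloride channel, at 6.74 RPKM in lung against 0.0117 to 2.97 RPKM elsewhere, 2.27-fold above heart (2.04 to 2.53). The epithelial sodium channel, which clears fluid from the airspaces, was high in lung and kidney. SCNN1A was at 10.8 RPKM in lung and 27.9 RPKM in kidney, SCNN1B at 1.20 and 1.27 RPKM, and SCNN1G at 0.849 and 4.30 RPKM. Without the kidney library, 5 of the 10 were above every other organ, and over all alternatives this number ranged from 0 to 5. Prostaglandin and vasoactive genes gave 14 of 19 above the median and 1 above the maximum, with a median difference of 1.96. These counts were 7 and 0 with a pseudocount of 1. The member above the maximum was TBXAS1, thromboxane synthase, at 2.20 RPKM, 2.27-fold above spleen (1.67 to 3.10). ACE, angiotensin-converting enzyme, was at 18.9 RPKM in lung against a median of 2.58 RPKM and 85.2 RPKM in testis.

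Of 12 genes of xenobiotic metabolism, 8 were above the median, 1 was below and 5 were above the maximum, with a median difference of 1.61. FMO2, the flavin monooxygenase of lung, was at 24.8 RPKM, against 4.51 RPKM in adipose tissue, and CYP1A1, a cytochrome P450 induced by aromatic hydrocarbons, was at 6.70 RPKM against 1.34 RPKM in liver. ALDH3A1, CYP4B1 and CYP2F1 were the other 3, the last with 5 reads. With a pseudocount of 1 or scaling to the same median ratio, 3 were above the maximum. FMO1, another flavin monooxygenase, was at 35.4 RPKM in lung and 254 RPKM in ovary, and AOX1, aldehyde oxidase, was at 1.13 RPKM against a median of 6.93, the member called below. Cell cycle genes were called above the median in 12 of 13 members and above the maximum in 0, with a median difference of 1.59. TOP2A, which untangles DNA, was at 5.22 RPKM in lung, 58.6 RPKM in testis and a median of 1.36 RPKM. This count was 4 of 13 with scaling to the same median ratio.

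**Figure D4:**
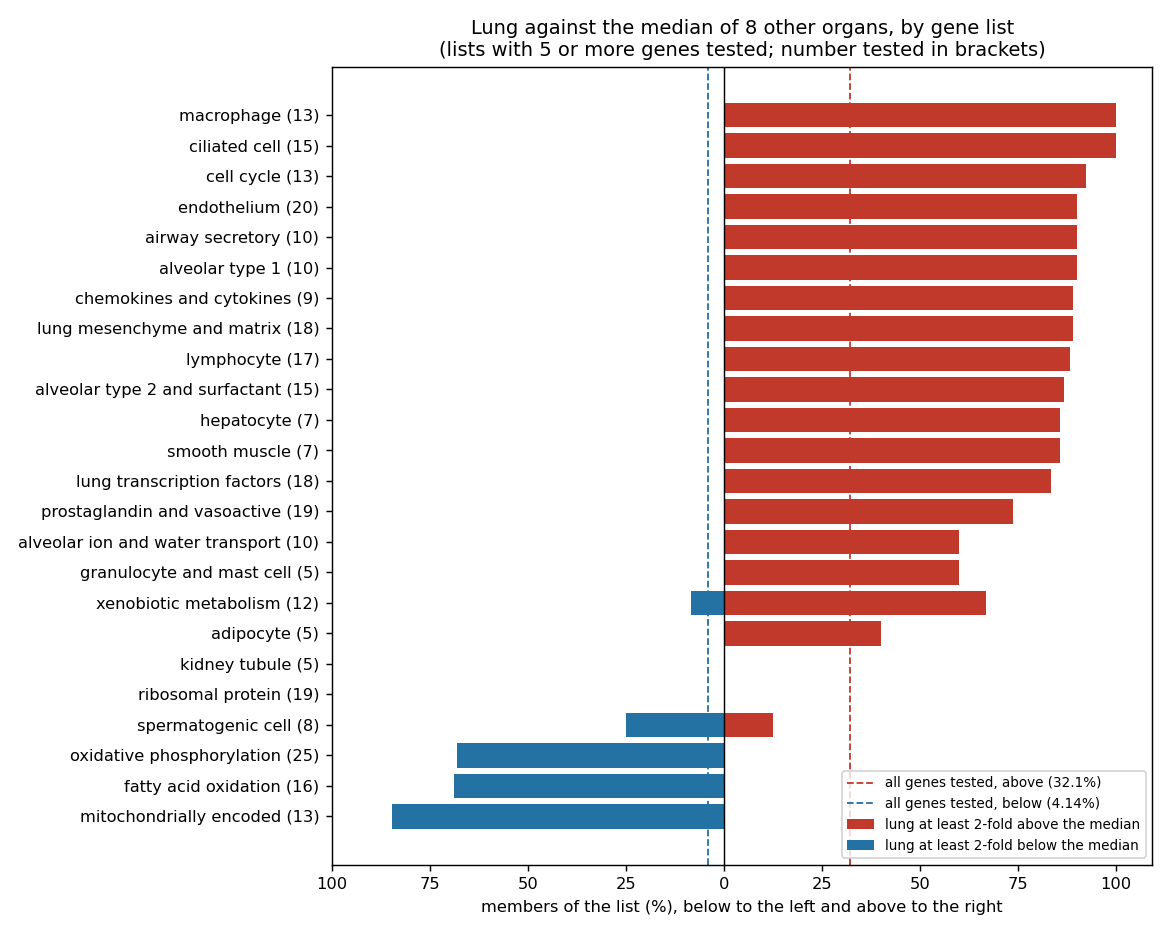
Share of the tested members of each gene list that were at least 2-fold above (red, to the right) or below (blue, to the left) the median of the 8 other organs, for lists with at least 5 tested members, whose number is in brackets. Dashed lines show the share over all 18576 Ensembl genes, 32.1% above and 4.14% below. The 3 lists at the bottom are genes of mitochondrial metabolism.

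Genes of mitochondrial metabolism were the groups that stood lower in lung. None of the 25 nuclear genes of oxidative phosphorylation was above the median, and 17 were called below it, against 4.14% of all genes. The median difference was -1.42. NDUFA4, of the respiratory chain, was at 4.03 RPKM in lung and at 6.01 to 75.9 RPKM elsewhere with a median of 19.7, the lowest of all organs. NDUFA8, of complex I, was at 1.55 RPKM against a median of 7.89, and UQCRQ, of complex III, at 3.56 RPKM against 15.0. Lung was among the lowest 3 organs for 21 of the 25 genes and the lowest for 5. Liver, spleen and adipose tissue were the other organs at the low end for most of these genes. Of the 25, 17 were higher in lung than in spleen. With all libraries scaled to the same total RPKM, the number below the median was 8, and without testis and ovary it was 10. Genes of fatty acid oxidation gave 11 of 16 below the median and 0 above, with a median difference of -1.24. Lung was among the lowest 3 organs for 12 of the 16 and the lowest for 1, and 13 were higher in lung than in spleen. Neither kind of count was made over all genes. The median difference of all Ensembl genes to the other organs was 0.51 for lung and 0 for spleen, so the counts against spleen are not read as particular to these lists. ACADM, medium-chain acyl-CoA dehydrogenase, was at 7.57 RPKM in lung and at 5.0 to 98.8 RPKM elsewhere with a median of 39.3, and ACAA2, the last enzyme of the cycle, was at 1.01 RPKM against 6.19. With scaling to the same total, 6 were below.

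The 13 genes encoded by mitochondrial DNA were added as a list after the values of COX1 had been seen among the most abundant genes. Of these, 11 were called below the median and 0 above, with a median difference of -2.39. Lung was among the lowest 3 organs for all 13, but above spleen for 12 of them, and here too the share over all genes was not counted. COX1, a cytochrome c oxidase subunit, was at 630 RPKM in lung, at 505 RPKM in the lowest other organ, spleen, at a median of 2980 RPKM and at 6615 RPKM in heart. COX2 and COX3 were at 286 and 208 RPKM, against medians of 1051 and 1177 RPKM. ND6 and ATP8 were below the median by less than 2-fold. Lung, spleen and liver formed the low end for COX1, with 593 RPKM in liver.

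**Figure D5:**
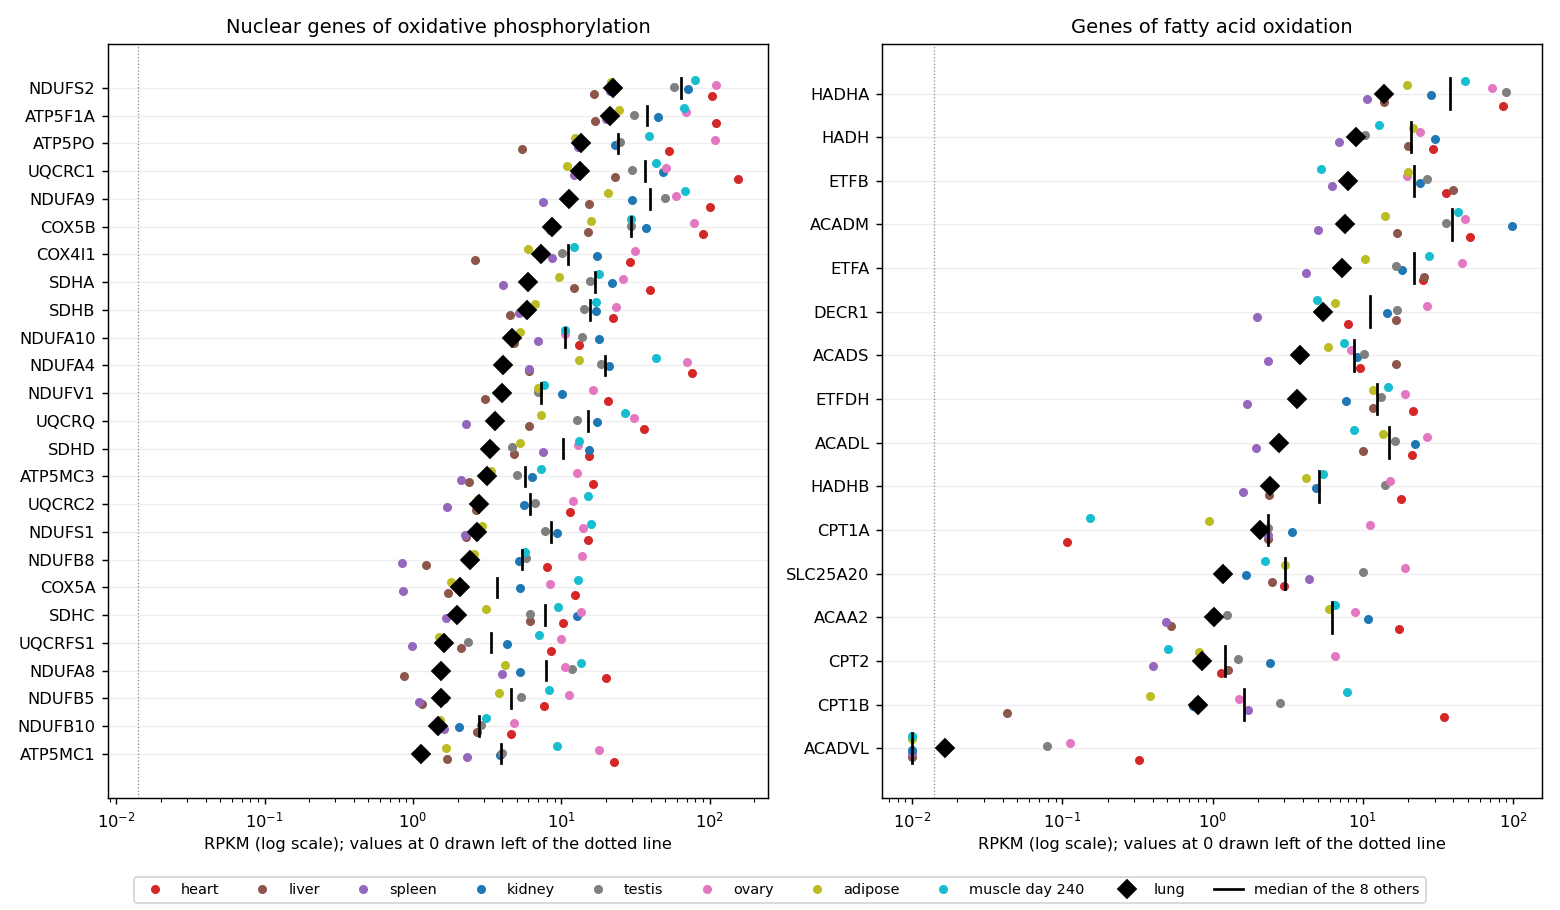
RPKM on a log scale in lung (black diamonds) and the 8 other organs (coloured circles) for 25 nuclear genes of oxidative phosphorylation (left) and 16 genes of fatty acid oxidation (right), with a vertical bar at the median of the 8 others. The diamonds lie left of the bar for all 25 genes on the left, with liver, spleen and adipose tissue also at the low end, and ACADVL, at the foot of the right panel, is at 0 in most organs.

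The 10 named genes lowest against the median were mixed in function. PEBP4, a phosphatidylethanolamine-binding protein, was at 0 in lung, where 3 reads would give 0.104 RPKM, against a median of 4.33 and 126 RPKM in testis, which makes testis at least 1213-fold higher. GRB14, an adaptor of the insulin receptor, was at 0.159 RPKM against a median of 6.67 RPKM. ATOX1, a copper chaperone, was at 0 in lung and at 0.304 to 11.0 RPKM elsewhere. These genes did not belong to a single pathway. Several serve metabolism in liver, fat and muscle. PC, pyruvate carboxylase, was at 0.882 RPKM against a median of 9.74 and 42.6 RPKM in adipose tissue, PSAT1, of serine synthesis, at 1.14 RPKM against 14.5, and CA3, a muscle carbonic anhydrase, at 0.0869 RPKM against 1.88 and 599 RPKM in muscle. CDH2, N-cadherin, was at 0.504 RPKM against 5.61 and 41.4 RPKM in heart. PTN, the growth factor pleiotrophin, was at 0.0731 RPKM against 1.41, EBPL at 0.0432 RPKM from 1 read against 1.15, and EFHD1, a mitochondrial calcium-binding protein, at 0.0273 RPKM from 2 reads against 1.01. The 6 genes below every other organ, named after their values were seen, were EBPL and ATOX1 with UBL7, RPS21, AVEN and ENSSSCG00000029126. UBL7 had 0.194 RPKM in lung and 0.573 RPKM in the lowest other organ, and AVEN, an inhibitor of apoptosis, 0.510 and 1.12 RPKM. For EBPL the 95% Poisson interval in lung reached 0.241 RPKM, above its lowest value elsewhere, 0.222 RPKM from 5 reads in heart. RPS21 was at 0 in lung, where 3 reads would give 0.322 RPKM, and its lowest value elsewhere was 0.109 RPKM from 1 read in kidney, so a lower level in lung than there was not detectable at this depth.

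The most abundant named genes in lung were partly shared with other organs. Beside SFTPC and SCGB1A1, they were COX1, COX2, COX3, ALB, TMSB10, RPLP2, A2M and ACTB. TMSB10, an actin-binding thymosin, was at 628 RPKM in lung and 660 RPKM in ovary, against a median of 103 RPKM. A2M, the protease inhibitor alpha-2-macroglobulin, was at 386 RPKM in lung, 742 RPKM in ovary, 605 RPKM in testis and 322 RPKM in liver, against 0.572 RPKM in muscle. ACTB, beta-actin, was at 313 RPKM, second to spleen with 386 RPKM. RPLP2, a protein of the large ribosomal subunit, was at 461 RPKM against a median of 486 RPKM. Of the ribosomal protein genes, 0 of 19 were called above or below the median, with a median difference of 0.17, and 4 were above it with scaling to the same total.

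Few markers of the other organs were called above the median in lung, apart from the hepatocyte genes and 2 of 5 adipocyte genes. Of 4 cardiomyocyte genes, 0 were above the median and 1 was below, and MYH6, a cardiac myosin, was at 0.471 RPKM in lung and 4521 RPKM in heart. ACTA1, the skeletal muscle actin and the only paired gene of its list, was at 1.18 RPKM against 2998 RPKM in muscle. None of 5 kidney tubule genes, 3 ovary genes, 2 spleen genes and 4 passed thyroid and cartilage genes was called on either side. A gene with a median under 0.1 RPKM over the others cannot be called below, even at 0 in lung. The lack of calls below therefore says little about genes of a single organ. UMOD, of kidney tubules, was at 0.0675 RPKM in lung and 165 RPKM in kidney. Of 8 spermatogenic genes, 1 was above and 2 were below the median, with the highest, AKAP4, at 0.272 RPKM in lung and 130 RPKM in testis. Of 5 adipocyte genes, 2 were above, where the share over all Ensembl genes was 32.1%. CIDEC, of lipid droplets, was at 1.65 RPKM in lung and 71.2 RPKM in adipose tissue. Of 3 mesothelial genes, 1 was above and 1 below. KRT18, a keratin also made by hepatocytes, was at 8.46 RPKM in lung and 17.5 RPKM in liver, and WT1 was at 0.

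Spleen was the organ whose profile was most like that of lung. Spearman's rho across the 18576 Ensembl genes was 0.810 with spleen, 0.785 with adipose tissue, 0.761 with kidney and 0.756 with ovary, and it was lowest with testis at 0.550. These are correlations across genes within 1 pair of libraries, and genes are not independent replicates. Genes could pass the limit of 0.1 RPKM through 1 organ alone, so rho with testis cannot be read apart from this filter. A total of 2008 genes were at least 4-fold above the median in lung but not 2-fold above the maximum. For 514 of them (25.6%) spleen had the highest value of the others, for 466 testis, for 388 ovary, for 241 liver and for 236 kidney. Over all 18576 genes, the numbers at least 2-fold above every other organ were 359 in spleen, 3046 in testis and 2261 in ovary. They were 410 in liver and 599 in kidney. How often each organ held the highest value over all genes was not counted, so these counts alone do not rank the organs by likeness to lung.

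For the 7932 lncRNAs compared, 1833 (23.1%) were at least 2-fold above the median of the other organs in lung and 175 (2.21%) at least 2-fold below. A total of 257 (3.24%) were above every other organ, and 1 (0.0126%), TCONS_00580332, was below every other organ. It was at 0 in lung and at 0.175 RPKM from 3 reads in liver, the lowest of the others. Its 95% Poisson interval in lung reached 0.179 RPKM, so a lower level in lung than in liver was not resolved at this depth. The difference to the median had a median of 0 over all lncRNAs. Of the 257, 106 were at least 4-fold and 35 at least 8-fold above every other organ. Their levels were low. The median of the 257 was 0.767 RPKM from at least 15 reads, up to 101 rested on under 10 reads, and 93 were at 0 in all 8 others. These are bounds because recovered reads are lower bounds for features above 0 in up to 3 libraries. For the 505 Ensembl genes the median was 2.15 RPKM from at least 113 reads, with up to 68 under 10 reads. The same 3 organs exceeded lung for lncRNAs, testis with 3025, ovary with 549 and kidney with 368. With at least 10 recovered reads in at least 1 library asked for, 156 of the lncRNAs were above every other organ, and without the testis library 454 were.

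TCONS_00550817 stood highest above every other organ. It was at 15.6 RPKM in lung from 614 reads (95% Poisson interval 14.4 to 16.8), at 0 in the median of the others and at 0.122 RPKM in liver from 4 reads, and lung was 128-fold higher (49.7 to 471). TCONS_00390820 was at 10.5 RPKM from 126 reads, with 2 reads in ovary as the highest, a ratio of 37.0 (10.02 to 309). TCONS_00440696 was at 5.84 RPKM and 38.1-fold above ovary, with 3 reads there (12.9 to 187). TCONS_00129586 was at 4.99 RPKM from 102 reads, with 1 read in kidney, a ratio of 100.3 (17.6 to 4002), and TCONS_00047296 was at 3.41 RPKM from 91 reads, with 2 reads in testis, a ratio of 47.5 (12.8 to 398). The other 5 were at 0 in all 8 other organs. TCONS_00000524 had 4.34 RPKM from 50 reads and was at least 9.78-fold higher, TCONS_00158177 had 2.84 RPKM from 23 reads, TCONS_00372481 had 1.96 RPKM from 17, TCONS_00418747 had 1.96 RPKM from 23 and TCONS_00468873 had 1.66 RPKM from 16, and these 4 were at least 4.50-, 3.32-, 4.50- and 3.13-fold higher. Lengths and reads of features above 0 in up to 3 libraries are lower bounds, which holds for these 5 and for TCONS_00129586 and TCONS_00047296, whose counting intervals rest on those reads.

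Among lncRNAs whose median over the other organs was at least 1 RPKM, the 5 lowest in lung against that median had few reads in lung. TCONS_00671094 and TCONS_00099633 were at 0 in lung, where 3 reads would give 0.189 and 0.276 RPKM, against medians of 1.04 and 1.03 RPKM. TCONS_00099633 was at 322 RPKM in testis. TCONS_00866545 was at 0.0276 RPKM in lung against a median of 1.301 and 21.1 RPKM in ovary. TCONS_00644974 was at 1.38 RPKM against 9.14, and TCONS_00452982 was at 0.373 RPKM from 5 reads against 1.44. All 5 had their highest value in testis, ovary, liver or kidney.

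The most abundant lncRNAs in lung were not those that set it apart. TCONS_00512109 was at 1912 RPKM in lung, at 278 to 6380 RPKM elsewhere and at a median of 2637 RPKM, so lung was 0.300 of the heart level. TCONS_00742897 was at 47.1 RPKM in lung from at least 500 reads, at 103 RPKM in testis, at 0.185 RPKM in adipose tissue from 2 reads and at 0 in the other organs. TCONS_00092698 was at 42.1 RPKM in lung and 102 RPKM in spleen, against a median of 2.64 RPKM. Only TCONS_00458763 of the 5 was called above every other organ, at 34.4 RPKM against 12.4 RPKM in adipose tissue, 2.77-fold (2.54 to 3.02). TCONS_00326882 was at 28.7 RPKM against 24.8 RPKM in kidney, and its interval of 0.969 to 1.38 includes 1. Among the 516 lncRNAs at least 4-fold above the median but not 2-fold above the maximum, testis had the highest value for 177 (34.3%). Ovary had it for 95, spleen for 69 and kidney for 67. Over all 7932 lncRNAs, the numbers at least 2-fold above every other organ were 3025 in testis, 549 in ovary, 143 in spleen and 368 in kidney. How often each organ held the highest value over all lncRNAs was not counted, so the 177 are not read as a link between lung and testis. Spearman's rho with lung across the 7932 lncRNAs was 0.551 for spleen, the highest, and -0.0661 for testis, the lowest. A lncRNA needed 0.1 RPKM in only 1 library, and 3025 of the 7932 were at least 2-fold above every other organ in testis. Features that passed through 1 organ alone can lower rho with that organ, so the value for testis cannot be read apart from this filter.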

How the data were processed

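Total RNA depleted of ribosomal RNA was sequenced from 13 pig libraries, of which the 9 single-organ libraries taken at 240 days were compared here. Muscle libraries of younger pigs and the mixtures of RNAs were left out of the comparison. The authors deposited RPKM values per feature. The study's methods name htseq-count for counting lncRNA reads, and the submitters' processing notes name TopHat 1.3.2 and Cufflinks. For these RNA libraries, the genome build and the annotation behind the Ensembl identifiers are not given in the sources used here. The recovered totals also held reads outside the listed features, and RPKM sums differed between organs, so 2 other scalings were tried.

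Whole reads, feature lengths and read totals were recovered from the steps between deposited RPKM values, and all 29462 of 29462 features above 0 gave whole reads. Features above 0 in up to 3 libraries give only lower bounds of length and reads. There were 0 unused sample columns. Symbols came from a table of gene names, which matched 11654 of 21607 identifiers, and 2 symbols carried by more than 1 identifier were not used. Genes and lncRNAs that reached 0.1 RPKM in any of the 9 libraries were compared on the log2(RPKM + 0.1) scale, lung minus the median, highest or lowest of the 8 others, and called at 2-fold. With 1 library per organ no p-value was computed. Levels carry 95% exact Poisson intervals and ratios 95% exact conditional intervals, for counting error only, and reads are not independent molecules. A fold against organs that were all at 0 was taken against 3 reads in the shallowest other library.

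The text names the 20 genes with a symbol highest above the maximum and the 10 lowest against the median (at least 1 RPKM in lung for the former, in the median of the others for the latter, and 10 reads in the high library), the 10 most abundant, in each list the members above the maximum and a choice from the 4 most abundant, the matching 10, 5 and 5 lncRNAs, and 2 genes without a symbol. Other list members were named after their values were seen. The members and lists were chosen with earlier results of these data known, and 1 list was added after its values were seen. Alternatives covered the pseudocount, the filter, the scaling, the organs left out and a share of liver taken off lung. The scripts were tested on simulated data. Python 3.11.15, numpy 2.4.6, pandas 2.3.3, scipy 1.17.1 and matplotlib 3.10.9 were used.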

Additional observations from a re-analysis of the deposited data

Results flagged for a closer look

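The features above every other organ in lung were also looked up in the mixture libraries, which lie outside the comparison. Of the 505 Ensembl genes, 452 (89.5%) had at least 3 reads in the mixture of tissues, against 94.2% of all genes compared, and 318 (63.0%) had at least 3 reads in the mixture of muscles, against 84.5%. Their median level was 33.7% of the lung level in the former and 5.68% in the latter. SFTPC was at 121 RPKM in the former and at 0 in the latter, and SCGB1A1 was at 1.01 RPKM and 0. Of the 257 lncRNAs, 182 (70.8%) had at least 3 reads in the tissue mixture, against 56.9% of all lncRNAs compared, and 98 (38.1%) in the muscle mixture, against 40.8%. Their median level was 20.2% and 2.79% of the lung level. These counts are given because they are signals in libraries that the comparison did not use.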

How the results depend on the processing

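Over the 8 counts of features called, 100 values under the alternatives were within 1.5 times the count reported and 36 were not. With a pseudocount of 0.01, 1334 Ensembl genes were below the median and 22 below the minimum, and 603 and 2 lncRNAs. With a pseudocount of 1, 2608 Ensembl genes were above the median, 256 below it, 218 above the maximum and 0 below the minimum, and 264, 4, 53 and 0 lncRNAs. Asking for at least 1 RPKM left 894 lncRNAs above the median and 95 above the maximum, and at least 10 recovered reads left 156 above the maximum. With scaling to the same median ratio, 1443 Ensembl genes were below the median and 34 below the minimum, with 2 lncRNAs below the minimum. Without testis and ovary, 501 Ensembl genes were below the median and 1312 above the maximum, and 115 and 584 lncRNAs, with 2 below the minimum. With the hepatocyte share of liver taken off, an alternative chosen after seeing the data, 27 Ensembl genes were below the minimum.

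Leaving out 1 organ at a time gave 518 to 894 Ensembl genes above the maximum, 5325 to 6903 above the median, 633 to 1099 below the median and 6 to 27 below the minimum. For lncRNAs the ranges were 263 to 454, 1720 to 1931, 153 to 268 and 1 to 3. The numbers without spleen were 894 above the maximum and 27 below the minimum, and without testis 805 Ensembl genes and 454 lncRNAs were above the maximum. Without muscle, 268 lncRNAs were below the median. The difference to the maximum changed sign for TCONS_00742897, to 0.088 with scaling to the same total and to 7.37 without testis or without testis and ovary, for ALB without liver and for TCONS_00092698 without spleen. Leaving out 1 organ at a time, it ranged from -1.13 to 7.37 for TCONS_00742897, from -4.0 to 7.0 for ALB and from -1.27 to 3.10 for TCONS_00092698. Beyond the organs left out, the cause of these changes was not tested. Of the counts in gene lists, 1542 stayed within 1.5 times and 90 did not. No paired analysis was possible because each organ had 1 library. Depth limits the lncRNAs most, since up to 101 of the 257 above the maximum rested on under 10 reads in lung.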
